A study of Mus musculus with 9 samples.

Results

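Hes1 and Hey1 are genes for transcriptional repressors of the basic helix-loop-helix class, and both are standard targets of the Notch receptor pathway. They are described here as 2 of the 11148 rows of a gene expression table of cultured mouse satellite cells, the stem cells of skeletal muscle. The rows were taken by gene name, Hes1 as ENSMUSG00000022528 and Hey1 as ENSMUSG00000040289. The pair was chosen with earlier results of these data known. The satellite cells came from limb muscle of mice of the strain labelled C57/BL6/DBA, aged 1 to 3 days, with male and female animals pooled, and all were grown on dishes coated with collagen. There were 9 RNA sequencing libraries, 1 for each medium and passage. F10 medium was sampled at passage 0 (P0), and its serum and FGF content are not given in the labels for that library. T cell medium was sampled at P0, P1, P2 and P15, and was an equal mixture (50:50) of T cell medium with F10 medium holding 15% serum, plus FGF at 2.5 ng/ml. Cytokine medium was sampled at the same 4 passages, and was F10 medium with 15% serum, FGF at 2.5 ng/ml, IL-1α and IL-13 at 5 ng/ml each and IFN-γ plus TNF-α, each of them at 10 ng/ml. The labels do not say whether successive passages came from separate cultures, so p-values over passages measure only the spread between these libraries.

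In Notch signalling a ligand on one cell causes the receptor on its neighbour to be cut, and the released intracellular part joins the DNA-binding protein RBPJ and its coactivators to switch on target genes. HES and HEY proteins are among the most direct of these outputs and repress other genes, including genes of differentiation. In muscle the pathway is known for keeping satellite cells undifferentiated. HES1 and HEY1 bind DNA as dimers and recruit corepressors.

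For most rows of this table the name cannot be relied on to go with the values. The row of Actb, the gene of an actin that all cells make in quantity, had a mean of 0.00264 RPKM (reads scaled to the length of the gene model and to the size of the library). The names of Hes1 and Hey1 were therefore checked against the values of the rows around them. Hes1 lies at chromosome 16, 30064384 to 30067796, on the plus strand, and Hey1 at chromosome 3, 8663359 to 8667256, on the minus strand (mm10), and no other annotated gene overlaps either. Both stand in a stretch of rows at the start of their chromosome, of 461 rows for Hes1 and 28 for Hey1, whose values fitted the annotated exons without a shift about as well as with the best one. The loss of log-likelihood without a shift was 0 for Hes1 and 0.32 for Hey1, and 5 was allowed. Around Hes1, Opa1, a mitochondrial fusion gene, and Atp13a3, a P-type ATPase gene, had means of 12.4 and 41.1 RPKM, while the platelet glycoprotein gene Gp5 had 0.212. Around Hey1, the mitochondrial ribosomal protein gene Mrps28 had 27.6 RPKM and the myelin protein gene Pmp2 had 0.107. The neuronal gene Stmn2 also lies near Hey1, and its row had a mean of 11.7 RPKM, from 0.777 to 38.0 over the libraries. These neighbours were named after their values were seen, so they are examples and not a test of the names. Of all neighbouring rows taken, 10 of 20 around Hes1 and 11 of 17 around Hey1 had a mean of at least 1 RPKM. For Hes1 a shift of 0 bp was the single value within 2 log-likelihood units of the best. For Hey1 shifts from -320 to 240 bp were, with the best at -240 bp, where the row would cover 80.5% of its own annotated exons, taken at 3265 bp. The same coordinates were counted in every library, but a shift would change the level of Hey1 and its ratio to Hes1. Ratios of Hey1 between libraries hold as far as the reads counted came from Hey1, which was not tested.

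Both genes were high in F10 medium at P0 and in T cell medium at P0 to P2, and low in cytokine medium at every passage. They parted in the P15 library of T cell medium, where Hey1 was low and Hes1 was not. In cytokine medium too the ratio of Hes1 to Hey1 was highest at P15, at 4.67 against 2.16 at P0. Each P15 value comes from 1 library. Hes1 was at 16.9 RPKM in F10 medium at P0 (95% counting interval 15.4 to 18.4). In T cell medium Hes1 was at 11.3, 14.8, 12.9 and 13.9 RPKM at P0, P1, P2 and P15. In cytokine medium it was at 3.48, 1.08, 2.58 and 4.67 RPKM at the same passages. The lowest Hes1 library of T cell medium thus stood above the highest of cytokine medium. In whole reads, recovered from the steps of the RPKM values and averaged over the 2 columns of a sample, Hes1 had 38.5 (P1, cytokine medium) to 487 (P0, F10 medium). Intervals cover counting error only.

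Hey1 was at 7.81 RPKM in F10 medium at P0 (95% counting interval 6.86 to 8.86). In T cell medium Hey1 was at 6.42, 5.88 and 7.59 RPKM at P0, P1 and P2, and at 1.84 at P15. In cytokine medium it was at 1.61, 0.534, 0.843 and 1.00 RPKM at P0, P1, P2 and P15. The groups did not overlap here either, but the P15 library of T cell medium (interval 1.41 to 2.36) lay beside the P0 library of cytokine medium (1.20 to 2.12). Hey1 had 20.5 to 263.5 reads. In bulk libraries, fewer cells with a transcript and less of it per cell cannot be told apart.

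**Figure D1:**
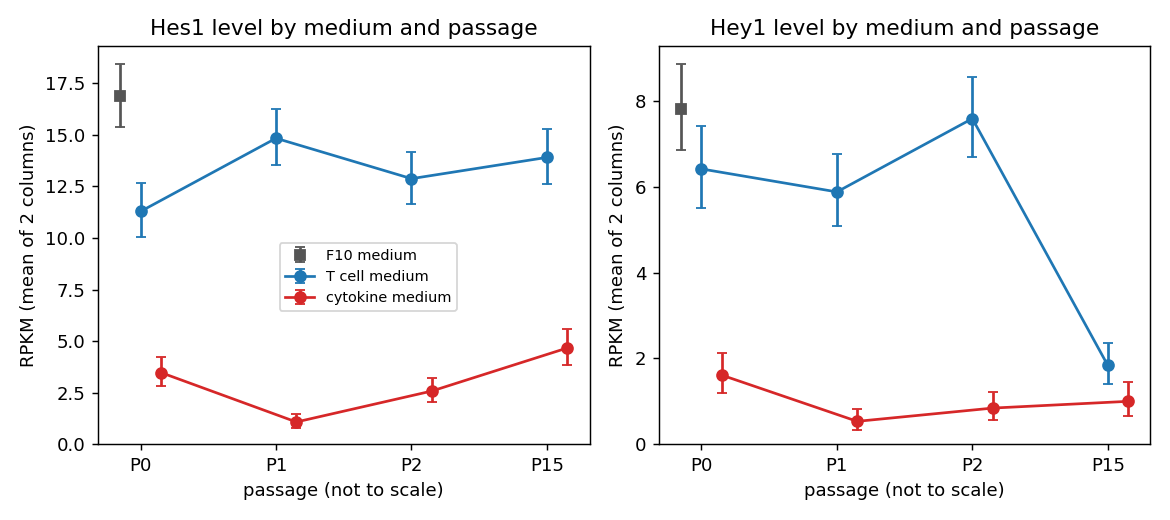
RPKM of Hes1 (left) and Hey1 (right) against passage, with 1 point per library, colours for the media and bars for the 95% counting interval. Hes1 in T cell medium stays between 11.3 and 14.8 RPKM, while Hey1 in T cell medium is at 5.88 to 7.59 up to P2 and at 1.84 at P15.

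In the order of the 9 libraries by Hes1 level, F10 medium at P0 came first, followed by T cell medium at P1, P15, P2 and P0. Each of these differed from the next by no more than counting error. The next step down, from T cell medium at P0 to cytokine medium at P15, was 2.42-fold (95% counting interval 1.95 to 3.02). Below it came cytokine medium at P0, P2 and P1. The step from P15 to P0 was 1.34-fold (1.02 to 1.77) and that from P2 to P1 was 2.39-fold (1.61 to 3.61), whereas P0 and P2 were within counting error of each other. In the order by Hey1 level there was 1 step beyond counting error, of 3.20-fold (2.39 to 4.33). It fell between T cell medium at P1 and T cell medium at P15. Above it stood F10 medium and T cell medium at P2, P0 and P1, and below it T cell medium at P15 together with all 4 cytokine libraries. The widest gap separated cytokine from T cell medium for Hes1, by a small margin over the gap between P2 and P1 of cytokine medium, and for Hey1 it set the P15 library of T cell medium with the cytokine libraries.

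Cytokine medium was compared with T cell medium across the 4 passages, since the series sets out to compare expression between treatments. These media differ in the T cell medium mixed in as well as in the added cytokines, and the parts played by each cannot be told apart. Hes1 and Hey1 were both lower in cytokine medium at 4 of 4 passages. The Hes1 mean over passages was 13.2 ± 1.52 RPKM in T cell medium and 2.95 ± 1.51 in cytokine medium (SD, n = 4 each). The mean difference was -1.93 ± 0.24 (SE) on the log2(RPKM + 1) scale, which understates changes of low genes (limma adjusted p = 0.0155). For Hey1 these means were 5.43 ± 2.50 and 0.997 ± 0.453 RPKM, and it fell by 1.60 ± 0.27 (SE; limma adjusted p = 0.0263). Of the 3183 rows tested, 182 were lower at an adjusted p under 0.05, or 5.72%, Hes1 and Hey1 among them, and 176 rows, or 5.53%, had all cytokine libraries below all T cell libraries. The difference was lower still in 8 rows for Hes1 and in 15 rows for Hey1. Among the 542 tested rows with usable names, 43 were lower in this fit, and Hes1 and Hey1 ranked 5th and 8th from the lowest. An exact sign-flip permutation test over the 4 passages gave p = 0.13 for each gene, two-sided, the smallest it can give.

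The calls depended on which passages and which rows entered the fit. Without P0 the limma adjusted p was 0.0614 for Hes1 and 0.109 for Hey1, without P2 it was 0.0527 and 0.0735, and without P1 Hey1 had 0.146 while the Hes1 call held (limma adjusted p = 0.0242). With no filter on low values both calls ended as well (limma adjusted p = 0.131 and 0.155). Hey1 passed the filter, a mean of 1 RPKM over the 8 libraries, through its level in T cell medium, since its cytokine mean was 0.997 RPKM. Without P15 both calls held, with a limma adjusted p of 0.00480 for Hes1 and 0.00107 for Hey1.

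The size of the medium difference varied by passage, and each passage has 1 library per medium and no test of its own. At P0 Hes1 was 3.25-fold lower in cytokine medium (95% counting interval 2.59 to 4.10) and Hey1 3.98-fold lower (2.91 to 5.54). At P1 Hes1 was 13.8-fold lower (9.89 to 19.6) and Hey1 11-fold lower (6.98 to 18.3). The P1 library of cytokine medium had the lowest level of both genes in the series. At P2 Hes1 was 4.99-fold lower (3.92 to 6.43) and Hey1 9.01-fold lower (6.09 to 13.8). At P15 Hes1 was 2.98-fold lower (2.42 to 3.68) and Hey1 1.84-fold lower (1.15 to 2.99).

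P15 was also the passage at which the media differed least over all rows. The SD of the log2 difference over the 3183 rows was 0.219 at P15, and 0.360, 0.424 and 0.540 at P0, P1 and P2. At P15, 2 of these rows (0.0628%) were at least 2-fold lower in cytokine medium on the log2(RPKM + 1) scale. Hes1 was 1 of them, and its difference of -1.40 was the lowest of all rows tested. Hey1 differed by -0.50, and 1.45% of rows had a lower value. At P0, P1 and P2, where 1.57%, 1.79% and 3.27% of rows were at least 2-fold lower, both genes were among them.

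**Figure D2:**
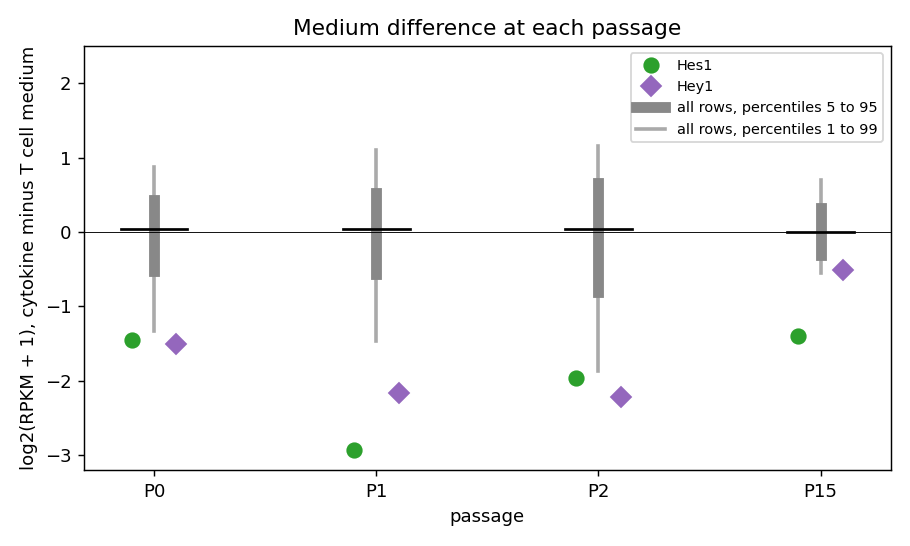
Difference in log2(RPKM + 1), cytokine minus T cell medium, at each passage for Hes1 (circles) and Hey1 (diamonds), with the spread of all 3183 rows as bars and their median as a line. Both genes lie below the 1st percentile of rows at P0, P1 and P2, and at P15 Hes1 does so at -1.40 while Hey1, at -0.50, is just inside it.

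Whether the medium difference at P15 departed from that at P0 to P2 was tested with limma. For Hey1 the difference was nearer to 0 at P15 by 1.46 ± 0.30 (SE), with an unadjusted p of 0.00249 and a limma adjusted p = 0.301. For Hes1 the change was 0.72 ± 0.51 (limma adjusted p = 0.855). Neither passed, and 7 of 3183 rows did, all with a positive change (0.22%). P15 enters as 1 difference without a replicate. Hey1 passed when P0 was left out (limma adjusted p = 0.0235) or P2 was left out (limma adjusted p = 0.0320).

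Within T cell medium, Hey1 at P15 was 3.49-fold lower than at P0 (95% counting interval 2.60 to 4.74) and 4.13-fold lower than at P2 (3.12 to 5.55). Hes1 at P15 was at 1.23-fold its P0 level (1.06 to 1.43) and 1.08-fold its P2 level (0.941 to 1.24). Fitted over the 4 libraries of T cell medium, a comparison added after the data were seen, Hey1 differed between P15 and P0 to P2 by -1.42 ± 0.19 (SE; unadjusted p = 0.000309, limma adjusted p = 0.0900) and Hes1 by 0.10 ± 0.21 (limma adjusted p = 0.964). In that fit 0 of 3209 rows (0%) were lower at a limma adjusted p under 0.05, 139 were at an unadjusted p under 0.05, and 3 were higher (0.0935%). Hey1 therefore did not pass.

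Within cytokine medium, Hes1 was lowest at P1. It was at 0.310-fold its P0 level there (0.208 to 0.453), and at P15 it was at 1.34-fold its P0 level (1.02 to 1.77). Hey1 was at 0.331-fold its P0 level at P1 (0.188 to 0.562) and at 0.621-fold at P15 (0.376 to 1.00). Over the 4 cytokine libraries Hes1 differed between P15 and the earlier passages by 0.82 ± 0.41 (SE; limma adjusted p = 0.405), and Hey1 was below the filter of a mean of 1 RPKM. There 3 rows were higher (0.0949%) and 2 lower (0.0633%), Hes1 not among them. Over both media, with medium as a term, the difference at P15 was 0.46 ± 0.28 for Hes1 (limma adjusted p = 0.399) and -0.69 ± 0.31 for Hey1 (limma adjusted p = 0.268). In that fit 4 of 3183 rows rose (0.126%) and 4 fell (0.126%).

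The ratio of Hes1 to Hey1, both per kilobase, shows the parting of the genes within each library. It was 2.16 in F10 medium at P0 (95% counting interval 1.85 to 2.53). In T cell medium it was 1.76, 2.52 and 1.70 at P0, P1 and P2 and 7.57 at P15 (5.79 to 10.1), an interval that does not meet those of the other T cell libraries. In cytokine medium the ratio was 2.16, 2.02, 3.06 and 4.67 at P0, P1, P2 and P15. The interval at P15 (3.06 to 7.35) meets those of the earlier passages, that of P0 only just (1.53 to 3.08). Intervals that meet do not show that the ratios are alike, and this difference between passages was not tested. Between the media the log2 ratio differed by 0.03 ± 0.68 (SD, n = 4 passages), with a higher value in cytokine medium at 2 of 4 passages (exact sign-flip permutation test, two-sided p = 1, where 0.13 is the smallest possible). With 4 passages this test could not pass 0.05, and the direction differed by passage: the ratio was higher in cytokine medium at P0 and P2 and lower at P1 and P15.

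**Figure D3:**
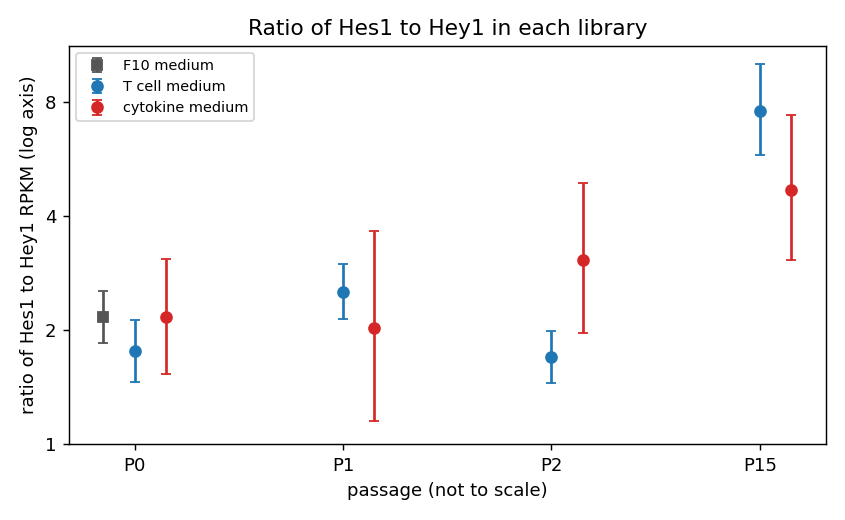
Ratio of Hes1 to Hey1 RPKM in each of the 9 libraries on a log axis, with bars for the 95% counting interval. The ratio lies between 1.70 and 3.06 up to P2 in all media, and at 7.57 and 4.67 at P15 in T cell and cytokine medium.

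At P0 both media were compared with F10 medium, in 1 library each and therefore without a test, and the comparisons share the F10 library. Hes1 in T cell medium was at 0.669-fold its F10 level (95% counting interval 0.577 to 0.775), a log2(RPKM + 1) difference of -0.54. Of 3247 rows, 2.68% had a lower value. Hey1 was at 0.821-fold (0.674 to 0.999), a difference of -0.25, and 13.2% of rows had a lower value. Neither was 2-fold lower, as 18 rows (0.554%) were. In cytokine medium both were 4.85-fold lower than in F10 medium, with intervals of 3.91 to 6.06 for Hes1 and 3.58 to 6.68 for Hey1. There 55 rows (1.69%) were at least 2-fold lower, Hes1 and Hey1 among them. By P15, Hes1 in T cell medium was at 0.825-fold the F10 level of P0 (0.723 to 0.941) and Hey1 at 0.235-fold (0.175 to 0.312). These P15 values differ from F10 medium in both medium and passage. Of the Hey1 difference, the larger step lay between P0 and P15 within T cell medium, the 3.49-fold given above.

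The other genes of the pathway give little more, because few of their names can be used. Of a list of 59 Notch pathway genes (receptors, ligands, processing enzymes, transcriptional partners and targets), 42 had a row and 5 had a usable name, Hes1 and Hey1 included. The names of the receptor and ligand genes are not used here. The remaining 3 genes lie on chromosome 16. Poglut1, which encodes a glucosyltransferase that modifies the extracellular part of Notch receptors, was at 13.5 to 18.8 RPKM in T cell medium and 16.7 to 20.5 in cytokine medium, a difference of 0.19 ± 0.09 (SE; limma adjusted p = 0.209). Crebbp, the gene of a coactivator with acetyltransferase activity that the Notch transcription complex shares with many others, ranged from 4.91 to 7.97 RPKM and from 4.85 to 6.70 RPKM in these media and differed by -0.08 ± 0.08 (SE; limma adjusted p = 0.505).

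Dtx3l encodes a ubiquitin ligase of the Deltex family, known best as an interferon-induced partner of PARP9. Its row read 0.346 RPKM with F10 medium, 6.81, 6.52, 9.19 and 7.10 with T cell medium and 13.1, 18.2, 18.9 and 16.5 with cytokine medium, in the order P0, P1, P2 and P15. Dtx3l rose by 1.07 ± 0.10 (SE) in cytokine against T cell medium (limma adjusted p = 0.00445), a call that ended with no filter on low values (limma adjusted p = 0.0707). Thus 1 of the 3 rose, where 5.44% of all rows did, and 0 fell, with limma unadjusted p of 0.0747 and 0.324 for Poglut1 and Crebbp. The median difference of the 5 pathway genes was -0.08, the value of Crebbp, and that of all rows tested was 0.03.

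The rows most like each gene were taken from the 541 other rows with usable names and a mean of at least 1 RPKM, by Pearson correlation of log2(RPKM + 1) over the 9 libraries. Libraries of one medium share that medium, and r was not computed within media, so it is given as a description. Those nearest to Hes1 were Pold4, a subunit gene of DNA polymerase delta (r = 0.92), the basement membrane collagen genes Col4a2 (0.91) and Col4a1 (0.90), Nsun3, a mitochondrial tRNA methyltransferase gene (0.91), and Yif1a, a gene of transport between endoplasmic reticulum and Golgi (0.90). Col4a1 reached 36.8 RPKM with F10 medium, and it was at 9.23 to 19.0 in T cell medium and at 1.86 to 10.3 in cytokine medium. Like Hes1, it was lowest in cytokine medium at P1 and not reduced in T cell medium at P15, where it was at 19.0 RPKM. Such likeness follows in part from how the rows were picked, and not all of them shared it. Pold4, the row nearest to Hes1, was at 15.5, 12.2 and 13.6 RPKM in T cell medium at P0, P1 and P2 and at 10.6 at P15.

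Those nearest to Hey1 were Pkia, an inhibitor gene of protein kinase A (r = 0.95), Boc, the gene of a cell surface receptor that takes part in Hedgehog signalling and in myoblast adhesion (0.94), Rps6kb2, a ribosomal protein S6 kinase gene (0.94), Pold4 (0.94) and Srl, the gene of the sarcoplasmic reticulum protein sarcalumenin (0.93). Srl was at 50.4, 33.4 and 63.3 RPKM in T cell medium at P0, P1 and P2 and at 5.85 at P15. Pkia was at 51.5, 36.1, 53.7 and 23.6 RPKM in the same libraries. Both were lower at P15 in T cell medium, as Hey1 was, but both had been picked for their likeness to Hey1 over these libraries. Hes1 and Hey1 had r = 0.86 with each other, which placed Hey1 11th among the rows compared with Hes1, and Hes1 18th among those compared with Hey1.

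**Figure D4:**
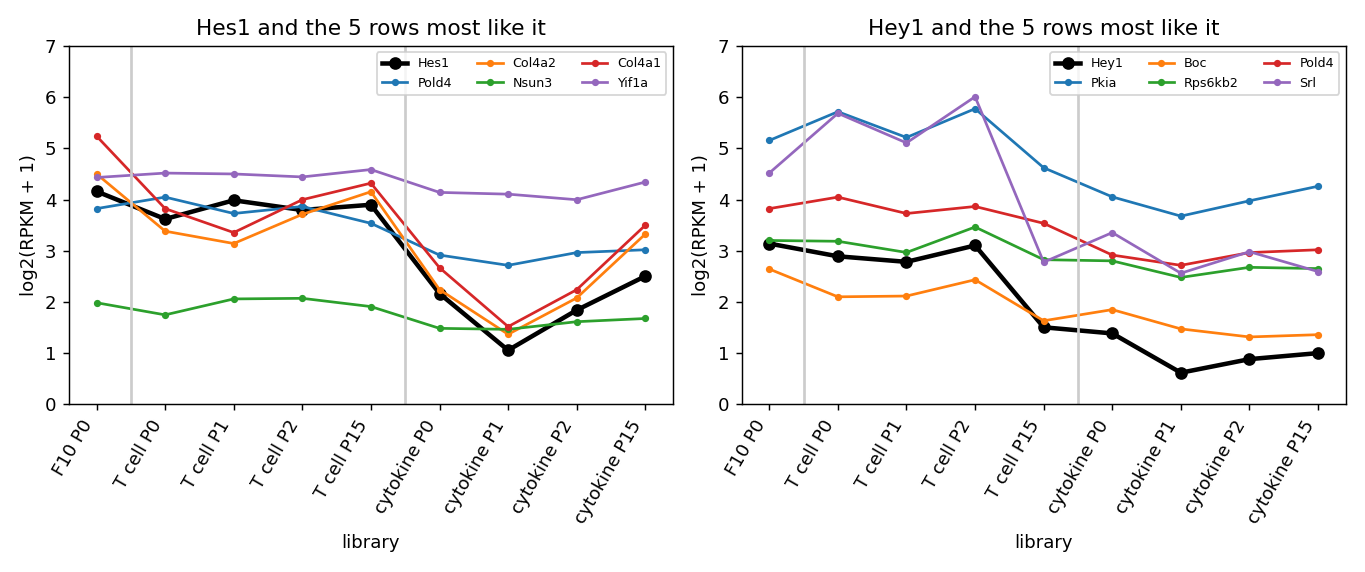
Levels as log2(RPKM + 1) in the 9 libraries for Hes1 (left, black) and Hey1 (right, black) with the 5 rows of highest Pearson correlation with each, grey lines dividing the media. At P15 in T cell medium Hey1, at 1.84 RPKM, and Srl, at 5.85, are low, while Hes1, at 13.9, and Col4a1, at 19.0, are not. Pold4, shown with both genes, is at 10.6 RPKM there.

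Markers of cell types were read where their names could be used. Of 11 muscle differentiation genes 4 could be read, Actn3, Myom2, Srl and Pygm. Their summed level was 67.0 RPKM with F10 medium, then 160.3, 102.3, 224.5 and 26.5 with T cell medium and 27.1, 11, 23.3 and 19.8 in cytokine medium at P0, P1, P2 and P15. This sum was lower in all cytokine libraries than in the T cell libraries of P0 to P2, and low at P15 in T cell medium, as Hey1 was. Srl, part of the sum, is also among the rows picked above for likeness to Hey1. With F10 medium the sum was below the T cell libraries of P0 to P2, which Hey1 was not. The part of differentiating cells in the levels of Hes1 and Hey1 was not tested. None of 8 satellite cell and myoblast genes, 5 fibroblast, 5 endothelial, 5 macrophage or 5 T cell genes had a usable name, so the labelled cell type was not checked here. Of the others, the smooth muscle gene Myh11 was at 0 to 0.400 RPKM, the neuronal gene Stmn2 at 0.777 to 38.0, highest in cytokine medium at P15, and the adipocyte gene Fabp4 at 0.204 to 2.15. Adipoq, also of adipocytes, was listed at 0 in every library but that of F10 medium, where it was at 0.0245 RPKM.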

How the data were processed

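RNA was sequenced from 9 libraries of cultured mouse satellite cells, 1 per medium and passage, at an estimated 13.0 to 18.2 M reads in column 1 of each sample. The authors deposited RPKM values, 2 columns per sample; per the submitters' processing notes, TopHat2 2.0.1, HTSeq 0.5.4p2 and mm10 were used, in roles that are not spelled out. The annotation, strand setting and scaling were not given in the sources used here. Low values are whole multiples of 1 read (within 0.02), which gave reads per row for 79.1% of rows. The columns of a sample differed by less than the sampling noise (chi-square per row 0.446 to 0.475, against 4.75 to 38.1 between samples), so their mean was counted as 1 sample.

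Names were checked on GENCODE vM21 by fitting a stepwise shift of row coordinates to the values (grid 40 bp, up to 8 Mb, 12.9 log-likelihood units per change), and 818 rows (7.34%) kept theirs: those in a stretch of at least 10 rows that starts a chromosome and loses at most 5 units without a shift, less 3 rows at its end. The implied gene length was 2037 bp for the Hes1 row, that of its annotated exons, and 2203 bp for the Hey1 row, against 3265 bp.

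Differences are in log2(RPKM + 1), tested with limma 3.58.1 (R 4.3.3, prior variance with a trend on level) on all rows with a mean of at least 1 RPKM, usable names or not, with Benjamini-Hochberg adjustment and a threshold of 0.05. Passage was a term, since libraries of the same passage deviated together (r = 0.150 to 0.714 over rows). The highest r of a T cell library with a cytokine library of another passage was 0.0634 to 0.1004. At P2 the margin was small, 0.150 against 0.1004. Counting intervals are exact Poisson or binomial at 95%, on the mean reads of the columns. Scripts were tested on simulated data. Named genes are Hes1, Hey1, pathway genes with usable names and the 5 rows most like each member. Neighbouring genes and single markers were named after their values were seen. The members and lists were chosen with earlier results of these data known.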

Additional observations from a re-analysis of the deposited data

How the results depend on the processing

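Hes1 and Hey1 stayed lower in cytokine medium than in T cell medium under every alternative in which they were tested. The differences ran from -2.29 to -1.60 for Hes1 (14 alternatives) and from -2.25 to -1.39 for Hey1 (13), and 11 and 9 of these kept the limma call. The calls ended with no filter (-1.93 and -1.60), without P0 (-2.09 and -1.63), without P2 (-1.93 and -1.39) and, for Hey1, without P1 (-1.41). The fit with no replicate block by passage kept both calls (limma adjusted p = 0.0114 and 0.0481), but called 32 rows higher and 23 lower in place of 173 and 182. Rows called higher and lower were 7 and 0 with no filter (834 and 898 at an unadjusted p under 0.05 in limma). With usable names alone they were 40 and 39, but of 542 rows tested in place of 3183, so these counts are not a smaller share. They were 11 and 2 without P0, 8 and 3 without P1, and 22 and 5 without P2, and 91 were lower at a filter of 5 RPKM, which leaves out Hey1. The cause was not tested, except that fewer rows or passages enter some of these fits.

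In the test of whether P15 departed from P0 to P2, Hey1 passed without P0 (1.69) and without P2 (1.33), and its adjusted p ran from 0.0235 to 0.804. The count of rows was 7, and 14 with libraries rescaled to the same sum, 1 after quantile normalization, 3 in limma without trend, 21 without P0 and 41 without P2. It was 0 with no filter, with usable names alone and without P1 (607, 32 and 242 at an unadjusted p under 0.05 in limma). Dtx3l turned to -0.048 without P0 and Crebbp to -0.0075 without P2. For P15 against earlier passages the count of rows was 8, and 14 at a pseudocount of 0.1, 18 with no filter, 2 at a filter of 5 RPKM, 1 without P1, 25 without P2, 5 with no medium term, 3 in T cell medium alone, 5 in cytokine medium alone and 0 with usable names alone (101 at an unadjusted p under 0.05 in limma). Poglut1 turned to -0.034 in cytokine medium alone and Dtx3l to 0.085 without P2. Fits in 1 medium and the ratio without single passages were chosen after seeing the data.

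Against F10 medium at P0, a pseudocount of 0.1 gave -2.25 for Hes1 and -2.21 for Hey1 in cytokine medium, and 119 and 192 rows at least 2-fold apart in T cell and cytokine medium in place of 68 and 117, with 41 and 65 at a filter of 5 RPKM. The difference in log2 ratio of Hes1 to Hey1 turned to -0.053 in column 2 alone, -0.055 without P0 and -0.24 without P2. Depth limits Hey1 in cytokine medium, at 20.5 to 51.5 reads a library, where libraries next to each other in level are within counting error.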
